A study of Danio rerio with 16 samples.

Results

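Phototransduction in zebrafish rods and cones was followed here through 9 genes: gnat1, gnat2, pde6c, pde6h, grk7a, arr3a, arr3b, saga and sagb. The genes were taken by their symbol from the 31388 genes of the count tables, and all 9 were found and kept for testing among 23623 genes. RNA of whole wild-type embryos was counted in 16 libraries of 6 groups. Particle embryos had received 1 nl of a suspension with 5 mg/ml of red fluorescent polystyrene beads in polyvinylpyrrolidone (PVP) into the yolk at 2 days post fertilization (dpf), mock embryos had received PVP alone in the same way, and control embryos were not injected. Embryos, 10 per treatment group, were frozen at 1 day post injection (1 dpi, 3 dpf) or at 3 days (3 dpi, 5 dpf), which gave 3 biological replicates (A, B and C) of control and of particle embryos and 2 (A and B) of mock embryos at each time. The labels give beads of 700 nm, but the headers of both particle C tables read 70 nm, so the bead size of those libraries is uncertain. Nothing in the libraries separates the eye from the rest of the embryo, and fewer photoreceptors cannot be told apart from less RNA per photoreceptor.

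In the light response of the vertebrate photoreceptor, an activated opsin switches on the G protein transducin, whose alpha subunit relieves the inhibition of a cyclic GMP phosphodiesterase. The fall in cyclic GMP closes cation channels and the cell hyperpolarizes. A receptor kinase then phosphorylates the opsin, and arrestin binds it and ends the signal. Rods and cones use separate genes for most of these steps, and the zebrafish carries duplicate copies of several of them. The pineal gland of the fish also holds photoreceptor cells that use related proteins.

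Levels are given as CPM, counts relative to library size scaled by trimmed mean of M-values factors, and differences as log2 fold changes from edgeR's quasi-likelihood test with Benjamini-Hochberg adjustment over all 23623 genes and a threshold of 0.05. Library totals lay between 8679739 and 19840148 counts, and the lowest raw count of any of the 9 genes was 59, for arr3b in control C at 1 dpi. Since gene lengths were not used, levels are compared between libraries and not between genes. The file headers call the 4 C tables combined and those of A and B merged, with a code that the C headers lack. What this difference means is not stated. The split into C libraries and A and B libraries is called library series here, and values from A and B alone stand beside the pooled ones. Control C at 1 dpi stood apart from every other library in these genes, and values without it are given beside the control spread, the changes between times and the correlations.

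The transducin alpha subunits come first. The rod gene gnat1 (ENSDARG00000044199, chromosome 6) stood at 107, 123 and 12.7 CPM in control A, B and C at 1 dpi, at 112 and 68.3 CPM in mock A and B, and at 87.3, 108 and 33.0 CPM in particle A, B and C. At 3 dpi its levels were 118, 90.7 and 174 CPM in control, 190.2 and 119 CPM in mock and 79.3, 125 and 173 CPM in particle embryos. The groups overlapped at both times, both C libraries of 1 dpi were the lowest of their groups, and both C libraries of 3 dpi were the highest of theirs. The cone gene gnat2 (ENSDARG00000042529, chromosome 8) stood at 669.7, 682 and 14.2 CPM in control, 634 and 464 CPM in mock and 521, 569 and 119 CPM in particle embryos at 1 dpi. It reached 934, 863 and 918 CPM in control, 1190.0 and 981 CPM in mock and 899, 1004 and 1032 CPM in particle embryos at 3 dpi. Every library of 3 dpi lay above every library of 1 dpi for gnat2, and within 3 dpi the C libraries lay close to A and B.

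The phosphodiesterase is represented by its cone catalytic subunit and a cone inhibitory subunit. Cone catalytic pde6c (ENSDARG00000100397, chromosome 12) was counted at 227, 255 and 4.80 CPM in control, 255 and 191 CPM in mock and 190.0, 218 and 38.9 CPM in particle embryos at 1 dpi. The corresponding levels at 3 dpi were 364, 362 and 401 CPM in control, 505 and 453 CPM in mock and 419.6, 506 and 435 CPM in particle embryos. As for gnat2, the times did not overlap in any treatment, and both C libraries of 1 dpi were far below A and B. The gamma subunit pde6h (ENSDARG00000102558, chromosome 6), which holds the cone enzyme inactive in the dark, stood at 28.3, 74.8 and 15.2 CPM in control, 39.0 and 53.7 CPM in mock and 45.2, 68.2 and 19.2 CPM in particle embryos at 1 dpi. By 3 dpi it stood at 156, 216 and 344 CPM in control, 919 and 568 CPM in mock and 265, 296 and 265 CPM in particle embryos. Every library of 3 dpi exceeded every library of 1 dpi, and both mock libraries of 3 dpi lay above all control and particle libraries. The file symbol pde6h belongs to the gene now named pde6ha, and a separate row written PDE6H was not counted with it. That row was matched to pde6ga and is among the 40 other cascade genes below.

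**Figure D1:**
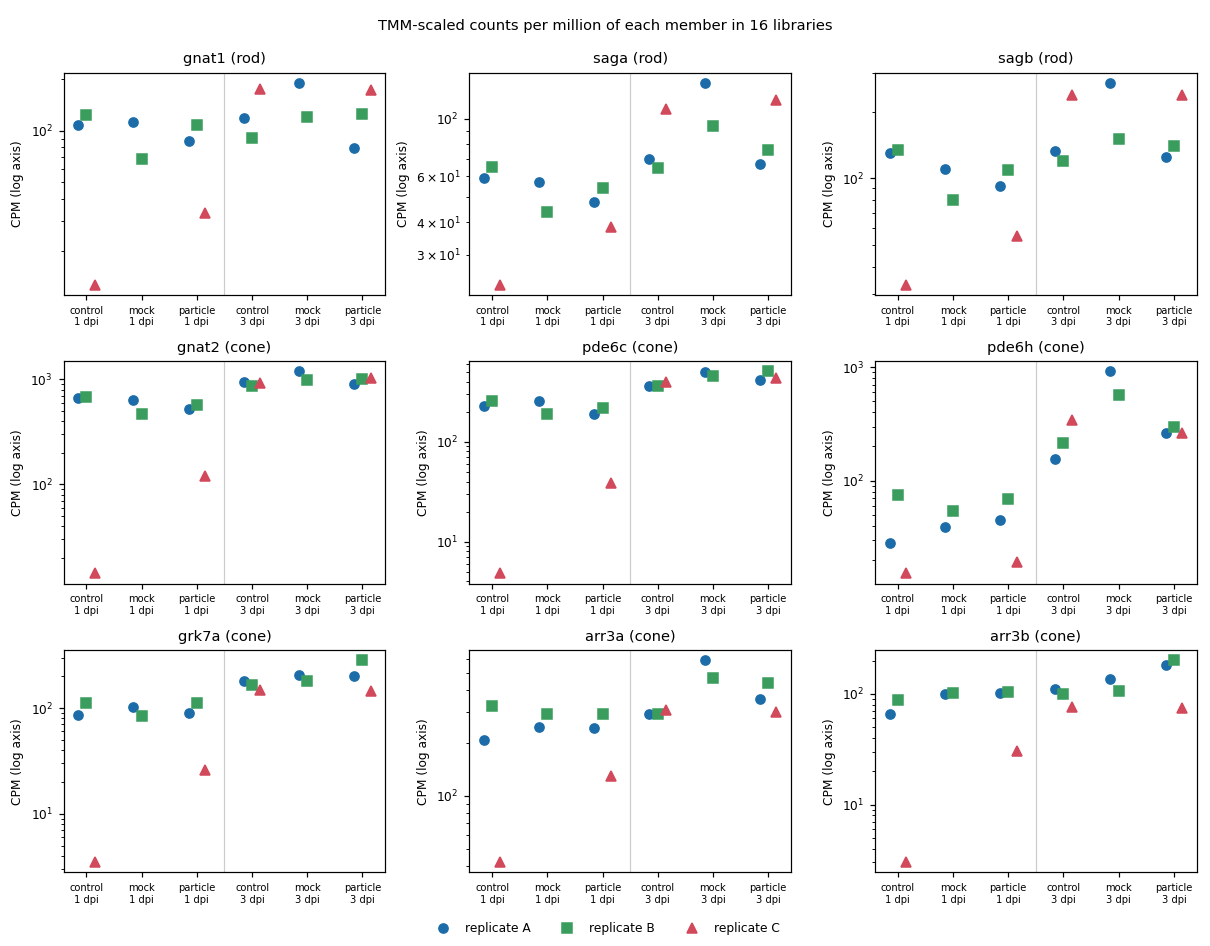
CPM of each gene on a log axis for the 6 groups, with one point per library and symbols for replicates A, B and C. Control C at 1 dpi is the lowest point of every panel, and pde6h in mock embryos at 3 dpi, at 919 and 568 CPM, stands above all other libraries of its panel.

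Shut-off of the opsin is represented by a kinase and 4 arrestins. The cone opsin kinase grk7a (ENSDARG00000020602, chromosome 2) stood at 86.7, 112 and 3.47 CPM in control, 103 and 84.0 CPM in mock and 89.6, 111 and 26.2 CPM in particle embryos at 1 dpi. Its levels at 3 dpi were 181, 166 and 149 CPM in control, 205 and 179.6 CPM in mock and 202, 283 and 145 CPM in particle embryos. For grk7a the times did not overlap, and the treatment groups overlapped at each time.

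Of the 2 cone arrestin copies, arr3a (ENSDARG00000056511, chromosome 10), known from the zebrafish retina for the long and middle wavelength cones, stood at 206, 324 and 41.7 CPM in control, 247 and 292 CPM in mock and 242, 291 and 130.2 CPM in particle embryos at 1 dpi. It stood at 291, 293 and 307 CPM in control, 591 and 466 CPM in mock and 357, 436 and 301 CPM in particle embryos at 3 dpi. Both mock libraries of 3 dpi were above every control and every particle library of that time. By library size alone, without the scaling factors, mock stood at 410 and 413 CPM, below particle B at 431 CPM. The copy arr3b (ENSDARG00000098475, chromosome 14), known for the short wavelength cones, stood at 66.0, 87.4 and 3.01 CPM in control, 101 and 102 CPM in mock and 102, 104 and 30.4 CPM in particle embryos at 1 dpi. At the later time arr3b stood at 109.8, 99.5 and 75.5 CPM in control, 137 and 107 CPM in mock and 182, 201 and 74.8 CPM in particle embryos. Particle A and B of 3 dpi were the highest arr3b libraries of all, while particle C of 3 dpi lay with control C.

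The rod arrestin saga (ENSDARG00000012610, chromosome 2) stood at 59.3, 65.4 and 23.1 CPM in control, 57.1 and 43.9 CPM in mock and 47.9, 54.1 and 38.3 CPM in particle embryos at 1 dpi. Its 3 dpi levels were 70.1, 64.5 and 109 CPM in control, 137 and 93.3 CPM in mock and 67.1, 75.5 and 118 CPM in particle embryos. Its paralog sagb (ENSDARG00000038378, chromosome 15) stood at 130.5, 134 and 33.1 CPM in control, 109.9 and 79.5 CPM in mock and 92.2, 109 and 54.8 CPM in particle embryos at 1 dpi. Both copies had the order of gnat1, with C lowest at 1 dpi and C above A and B at 3 dpi. For sagb the 3 dpi levels were 133, 119.7 and 239 CPM in control, 270.4 and 151 CPM in mock and 125, 139.6 and 238 CPM in particle embryos. Over the 3 rod genes, the ratio of 3 dpi to 1 dpi in single A and B libraries ran from 0.734 to 1.18 in control and from 0.908 to 1.40 in particle embryos.

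In control embryos of 1 dpi the coefficient of variation over 3 libraries ran from 46.5% for saga to 84.5% for pde6c, and over A and B alone from 1.26% for gnat2 to 63.8% for pde6h. Among controls of 3 dpi it ran from 2.82% for arr3a to 40.2% for pde6h. In particle embryos it ran from 17.0% for saga to 64.6% for pde6c at 1 dpi and from 6.60% for pde6h to 44.6% for arr3b at 3 dpi. In mock embryos, with 2 libraries each, the range was 0.754% for arr3b to 34.5% for gnat1 at 1 dpi and 7.66% for pde6c to 40.02% for sagb at 3 dpi. The control values of 1 dpi over 3 libraries include control C, in which gnat2 was 47.2-fold, pde6c 48.7-fold, grk7a 27.3-fold and arr3b 24.1-fold below the mean of A and B on the log2 scale. The fold was 8.97 for gnat1, 6.18 for arr3a, 3.97 for sagb, 3.02 for pde6h and 2.69 for saga. In that library 6 of the 9 genes were more than 4-fold below A and B, beside 587 of 23623 genes (2.48%). Particle C at 1 dpi was lower than A and B in the same genes by less, 5.21-fold for pde6c and 4.55-fold for gnat2, and these 2 of 9 passed 4-fold, beside 1.89% of all genes. No gene of the 9 was more than 4-fold lower in a C library at 3 dpi. There the rod genes stood higher in C, by 0.75 for gnat1, 0.69 for saga and 0.92 for sagb in control and by 0.80, 0.73 and 0.84 in particle embryos on the log2 scale, while arr3b was 2.56-fold lower in particle C. The cone gene pde6h also stood higher in control C of 3 dpi, by 0.90, and had -0.08 in particle C. These are single libraries, and the differences carry no test.

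**Figure D2:**
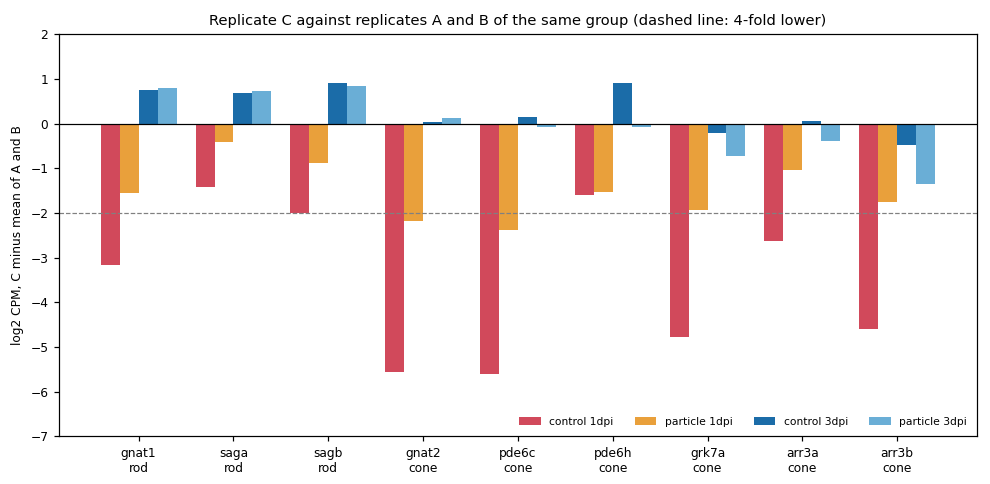
Difference in log2 CPM of replicate C from the mean of A and B of the same group, for the 4 groups that have a replicate C, with 1 bar per gene and group and a dashed line at 4-fold lower. Bars of control C at 1 dpi reach -5.61 for pde6c, whereas the 3 rod genes of the C libraries at 3 dpi lie above 0. Several cone genes of 3 dpi also lie above 0, the highest being pde6h of control C at 0.90.

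Other photoreceptor genes, though not all, were low in the same library. The summed level of the visual opsins was 288 CPM in control C and 1497 CPM in particle C at 1 dpi, and between 4943 and 10736 CPM in the other 14 libraries. Relative to A and B, control C had a median of -3.89 over 9 opsins, with 7 more than 4-fold lower, and of -1.83 over 40 other genes of the cascade, with 18 more than 4-fold lower. The medians were 0.50 over 23 markers of other retinal neurons and glia, with 2 more than 4-fold lower, and 0.08 over 19 lens genes, with 1 more than 4-fold lower. The 4 most abundant of the 23 markers were glula, gfap, gad1b and tfap2a. They were counted in whole embryos, so the median of 0.50 does not stand for the retina alone. They were 0.57 over 8 pigment genes and 0.91 over 7 pineal photoreceptor genes. Summed over these 7, the level was 191 CPM in control C and 104 and 111 CPM in A and B. Unlike that sum, parapinopsinb, a pineal opsin, was slightly lower, at 36.0 CPM in control C and at 39.1 and 42.8 CPM in A and B. The 19 visual cycle genes had a median of -0.35, with 2 more than 4-fold lower. Photoreceptor transcription factors and structural genes had a median of -0.96, with 7 of 23 more than 4-fold lower. Of the 4 most abundant of these, prph2b stood at 5.15 CPM in control C beside 198 and 206 CPM, prph2a at 3.16 CPM beside 178 and 199 CPM and syt5b at 88.5 CPM beside 149.8 and 198 CPM. The fourth, neurod1, a transcription factor of developing neurons, stood at 348 CPM beside 263 and 288 CPM. The part of embryo stage, eye development or library making in these differences was not tested.

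From 1 to 3 dpi, the comparison of development between 3 and 5 dpf, pde6h rose in all 3 treatments and the other 8 genes passed the test in none. The pde6h level went from 39.4 ± 31.3 to 239 ± 96.0 CPM in control (SD, n = 3), a log2 fold change of 2.61 (SE 0.54, edgeR adjusted p = 0.0323). Without control C the 1 dpi mean was 51.5 ± 32.9 CPM (SD, n = 2), and the log2 value of 2.22 did not pass. In mock embryos it went from 46.4 ± 10.4 to 743 ± 248 CPM (SD, n = 2), a log2 value of 4.003 (SE 0.70, edgeR adjusted p = 0.00234). In particle embryos the means were 44.2 ± 24.5 and 275 ± 18.2 CPM (SD, n = 3), a log2 value of 2.64 (SE 0.54, edgeR adjusted p = 0.0234). This is 1 of 9 genes called higher in each treatment, where 1.19% of all genes were called higher in control, 11.1% in mock and 1.56% in particle embryos, and 1.39%, 23.6% and 2.07% in either direction. Of 26 alternatives the control call passed under 17 and the particle call under 21. Both were lost when only the groups compared were fitted. With 1 library left out, the control call was lost, with adjusted p up to 0.105, without control_1dpi A or C, either mock library of 1 dpi, any control library of 3 dpi or particle_3dpi B. The particle call was lost, with adjusted p up to 0.0880, without particle_1dpi A or C or particle_3dpi A or B. The mock call passed under all 26 alternatives. If particle libraries are taken as paired between times by letter, which was not established, the replicate block gave pde6h a rise of 2.75 (edgeR adjusted p = 0.00642). This was again 1 of 9 genes, while the share of all genes called went from 2.07% to 8.25%.

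All 9 log2 values between times were above 0 in every treatment. Their medians were 0.87 in control, 1.04 in mock and 0.98 in particle embryos, where the medians of all genes were 0.00, -0.01 and 0.01. The other cone genes lay between 0.64 for arr3a and 1.30 for grk7a in control, with SE of 0.49 and 0.76, and between 0.72 for arr3a and 1.61 for pde6c in particle embryos. In mock embryos the lowest value was 0.27 for arr3b (SE 0.91, edgeR adjusted p = 0.852), and saga came closest to the threshold after pde6h, with 1.19 (SE 0.43, edgeR adjusted p = 0.0568). Libraries of the 2 times did not overlap, all being higher at 3 dpi, for 4 of 9 genes in control (gnat2, pde6c, pde6h and grk7a), beside 12.5% of all genes. The same held for 9 of 9 in mock, beside 33.5%, and for 7 of 9 in particle embryos (all but gnat1 and arr3b), beside 13.9%. Both mock groups hold 2 libraries, which makes separation more frequent. The mock separation also depends on the scaling factors, 1.08 and 1.06 in mock A and B of 1 dpi and 0.694 and 0.886 at 3 dpi. By library size alone arr3b in mock was lower at 3 dpi, at 95.1 and 94.8 CPM beside 109 and 108 CPM at 1 dpi. There gnat1 overlapped, at 122 and 72.6 CPM at 1 dpi and 132 and 106 CPM at 3 dpi.

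Within the A and B libraries the SE was smaller and more of the genes passed. In mock embryos 7 of 9 rose, beside 35.8% of all genes called in either direction: pde6h by 3.99, saga by 1.18, sagb by 1.14, pde6c by 1.09, grk7a by 1.03, gnat2 by 0.97 and arr3a by 0.96 on the log2 scale, with edgeR adjusted p from 0.000224 to 0.00702. In particle embryos 5 of 9 rose, beside 4.70%: pde6h by 2.297, grk7a by 1.26, pde6c by 1.17, arr3b by 0.89 and gnat2 by 0.79, all cone genes, with edgeR adjusted p from 0.00377 to 0.0275. In control embryos pde6h alone rose, by 1.87 (edgeR adjusted p = 0.0334), beside 2.91%. There gnat1 had -0.14 (SE 0.29) and sagb -0.06 (SE 0.24), the opposite sign to the pooled values of 0.66 and 0.73, and saga had 0.12. The C libraries gave larger single-library ratios, 83.7-fold for pde6c, 64.7-fold for gnat2, 43.0-fold for grk7a and 13.7-fold for gnat1 in control, and 11.2-fold, 8.64-fold, 5.52-fold and 5.24-fold in particle embryos. Without control_1dpi C alone, 0 of 9 rose in control (0.373% of all genes called), arr3a and saga joined pde6h in mock embryos (28%), and pde6c and grk7a joined it in particle embryos (5.03%). Without both C libraries of 1 dpi, a set chosen after seeing the data, pde6h alone rose in control (1.08% of all genes called), the same count of 7 genes as in A and B rose in mock (32.7%), and gnat2, pde6c, pde6h and grk7a rose in particle embryos (2.27%).

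**Figure D3:**
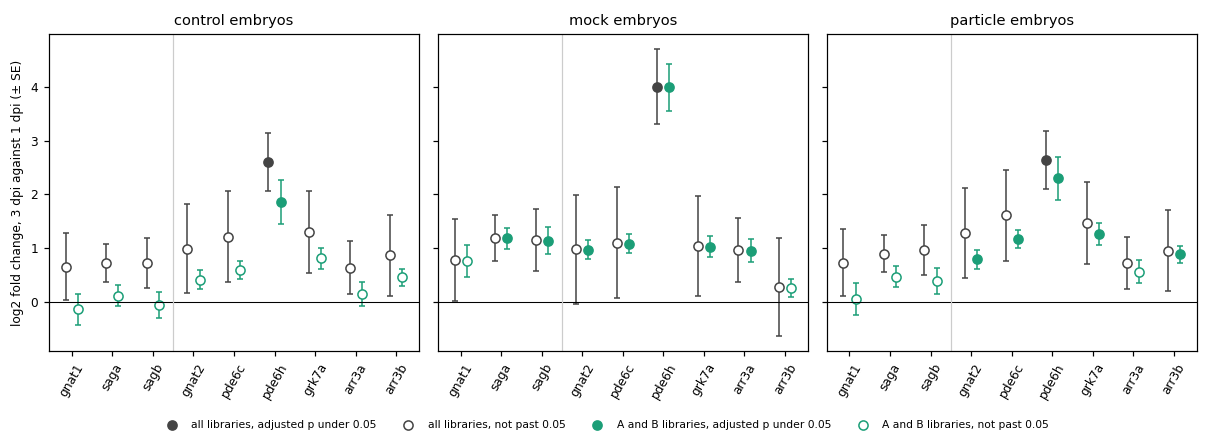
Log2 fold change of 3 dpi against 1 dpi with its SE for the 9 genes in control, mock and particle embryos, from all libraries (grey) and from A and B alone (green), filled where edgeR adjusted p was under 0.05. The pde6h points stand highest in each panel, at 2.61, 4.003 and 2.64 from all libraries, and the rod genes gnat1 and sagb of control A and B lie just below 0.

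Of 40 other cascade genes tested, 0 were called between times in control, 5 higher and 1 lower in mock and 1 higher in particle embryos. In control embryos 1.39% of all genes were called in either direction. In mock embryos 11.1% of all genes were called higher and 12.5% lower, and in particle embryos 1.56% were called higher. The genes named next were chosen after their values were seen. The cone kinase paralog grk7b was higher at 3 dpi by 1.15 in mock (edgeR adjusted p = 0.0387) and by 1.29 in particle embryos (edgeR adjusted p = 0.0424), and guca1c, a guanylate cyclase activator, was higher by 2.77 in mock embryos (edgeR adjusted p = 0.0327). The phosphodiesterase inhibitory gene pde6g, the G protein shut-off gene rgs9b and the recoverin gene RCVRN (2 of 2) were higher there by 0.85, 0.63 and 1.22. A G protein beta subunit gene, gnb1a, fell there by 0.60. Of the 4 most abundant cascade genes, the cone transducin subunits gnb3b and gngt2b stood at 12.6 and 14.7 CPM in control C at 1 dpi, beside 624 and 674 and beside 555 and 586 CPM in A and B, whereas gnb1b, which many cell types express, stood at 296 CPM beside 292 and 312 CPM. The recoverin family gene rcv1 stood at 94.95 CPM beside 279 and 377 CPM.

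Particle against mock asks what the beads add to injection and vehicle. At 1 dpi none of the 9 genes passed (0 of 23623 genes, 0%, and at most 4 genes under any alternative), with 0 at an unadjusted p under 0.05 and 0 by DESeq2 or limma-voom. The log2 values ran from -0.59 for pde6c to -0.07 for pde6h. All 9 were below 0 with all libraries and 3 of 9 with A and B alone, where the values ran from -0.13 to 0.29 and 0 of 9 passed, beside 0.00862% of all genes. At 3 dpi again 0 of 9 passed, beside 8.65% of all genes, and 1 of the 9 had an unadjusted p under 0.05. With 9 genes, 0 is not set apart from that share. That gene was pde6h, at 275 ± 18.2 CPM with particles (SD, n = 3) and 743 ± 248 CPM in mock (SD, n = 2), a log2 value of -1.43 (SE 0.56, edgeR adjusted p = 0.117). DESeq2 and limma-voom called 0 of the 9 as well, where alternatives called between 0 and 5645 of all genes. With a term for the library series the values of gnat2 and pde6c turned from -0.15 and -0.08 to 0.41 and 0.47, and neither passed. The particle libraries were all below the mock libraries for pde6h and for arr3a, whose log2 value was -0.54 (SE 0.54), and 20.4% of all genes had this pattern. By library size alone arr3a overlapped, with particle B at 431 CPM beside 410 and 413 CPM in mock. In A and B alone, where 24.3% of all genes passed, pde6h fell by 1.400 and saga fell by 0.69 (edgeR adjusted p = 0.0271 and 0.0257), and arr3b was higher by 0.66 (edgeR adjusted p = 0.0177). Without both C libraries of 1 dpi pde6h passed at -1.43, as did 17.7% of all genes. Mock A of 3 dpi differs from the rest in composition, with 38.8% of counts in its 100 most abundant genes, beside 19.9% to 32.0% in the other libraries, and the pde6h value was -1.05 without it. Without mock A of 3 dpi the rod values of gnat1 and sagb turned from -0.30 and -0.33 to 0.07 and 0.14. The saga value, -0.41 with all libraries, ran from -0.69 to -0.11 with 1 library left out.

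Mock against control asks what injection and vehicle do without beads. None of the 9 genes passed at 1 dpi (0% of all genes, at most 55 genes under any alternative, 0 of 9 at an unadjusted p under 0.05, 0 by DESeq2 or limma-voom). The values ran from -0.06 for sagb to 0.96 for arr3b, whose mock libraries lay above all control libraries, and 19.5% of all genes had that pattern. With A and B alone they ran from -0.48 to 0.40. At 3 dpi edgeR called 0 of 9, where it called 1.61% of all genes and alternatives called between 0 and 2878 genes. Of the 9, limma-voom called 0 and DESeq2 called pde6h. All 9 values were above 0, from 0.22 for grk7a to 1.64 for pde6h (SE 0.56, edgeR adjusted p = 0.123), which alone had an unadjusted p under 0.05. With a term for the library series the values were below 0 for gnat2 (-0.28), pde6c (-0.25), arr3b (-0.31) and grk7a (-0.41), and without mock_3dpi A for gnat1 (-0.09) and sagb (-0.12). The mock libraries lay above all control libraries for 4 of 9, gnat2, pde6c, pde6h and arr3a, beside 18.3% of all genes. Scaling factors were 0.694 and 0.886 in mock A and B of 3 dpi and 0.937 to 1.05 in the control libraries. By library size alone gnat2 and pde6c overlapped. There gnat2 stood at 825 and 868 CPM in mock and at 874, 850 and 964 CPM in control. For pde6c the levels were 350 and 401 CPM in mock and 340, 356 and 421 CPM in control. In A and B alone pde6h was higher by 1.98 (edgeR adjusted p = 0.0451), where 1.33% of all genes passed. Without both C libraries of 1 dpi, pde6h at 1.64 and arr3a at 0.83 passed, where 6.53% of all genes did.

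Particle against control, which takes in injection, vehicle and beads, gave 0 of 9 at either time by edgeR, DESeq2 and limma-voom, with 0 at an unadjusted p under 0.05, beside 0.00423% of all genes at 1 dpi and 0% at 3 dpi by edgeR. Alternatives called at most 7 of all genes at 1 dpi and 3 at 3 dpi. At 1 dpi the log2 values ran from -0.22 for sagb to 0.60 for arr3b. The groups overlapped for all 9, while 2.82% of all genes were higher and 2.7% lower in every particle library. At 3 dpi they ran from -0.02 for gnat1 to 0.69 for arr3b (SE 0.75, edgeR adjusted p = 1.00), and pde6c alone had groups that did not overlap, as did 3.16% of all genes in that direction. By library size alone pde6c overlapped too, with particle A at 414 CPM and control C at 421 CPM. In A and B alone 0 of 9 passed at either time, beside 0.00862% and 0% of all genes, and arr3b at 3 dpi had 0.86 (SE 0.16, edgeR adjusted p = 0.393). The 3 comparisons at each time share their libraries in pairs and are not independent of one another. No change of a treatment difference from 1 to 3 dpi passed the test of the interaction, with 0 of 9 in each of 3 interactions, 0 at an unadjusted p under 0.05, and 0.00423%, 0% and 0% of all genes. Not passing does not show that the differences stayed the same. In A and B alone it was again 0 of 9, beside 10.7% of all genes for particle minus mock, 0.00431% for particle minus control and 0.952% for mock minus control, and without both C libraries of 1 dpi 0 of 9, beside 0.047%, 0% and 0%. The pde6h values were -1.36 for particle minus mock (SE 0.81, edgeR adjusted p = 0.310), 1.39 for mock minus control (SE 0.81, edgeR adjusted p = 0.305) and 0.03 for particle minus control. The SE of the 9 genes ran from 0.34 to 0.93 in the treatment comparisons and from 0.49 to 1.31 in the interactions. The spread of each gene was estimated over all 6 groups together, so the C libraries of 1 dpi also enter the SE at 3 dpi. For pde6c in particle against mock at 3 dpi, the SE was 0.93 with all libraries and 0.15 without both C libraries of 1 dpi. That of pde6h went from 0.56 to 0.38.

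Within each pair of related genes, the share of one copy is a ratio inside a library and does not depend on its scaling. The share of gnat1 in the counts of gnat1 and gnat2 was 47.2% in control C at 1 dpi (95% Wilson interval 43.0% to 51.5%), 21.7% in particle C at 1 dpi (20.2% to 23.2%) and between 8.11% and 15.9% in the other 14 libraries. Summed over rod and cone genes, the rod genes held 45.5% of member CPM in control C and 25.7% in particle C at 1 dpi, and 10.5% to 19.2% in the others. Both C libraries of 1 dpi thus lay above all other libraries in the rod share. The share of arr3a in the cone arrestin counts was 93.3% in control C at 1 dpi (91.4% to 94.7%) and 66.2% to 81.3% elsewhere. Among A and B libraries of 3 dpi it was 81.2% and 81.3% in mock, 72.6% and 74.7% in control and 66.2% and 68.4% in particle embryos. These ranges of 2 libraries do not overlap, and how often other gene pairs separate was not counted. Control C and particle C of 3 dpi, at 80.3% and 80.1%, lay above A and B of their groups. With C included, control ran from 72.6% to 80.3% and particle from 66.2% to 80.1%, which overlap. The share of saga in the rod arrestin counts stayed between 31.2% and 41.1% in all 16 libraries, and the highest were the C libraries of 1 dpi, at 41.1% in both. Intervals cover counting error only, and the paralogs may share reads, since the handling of reads that match more than one gene is not given in the sources used here.

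**Figure D4:**
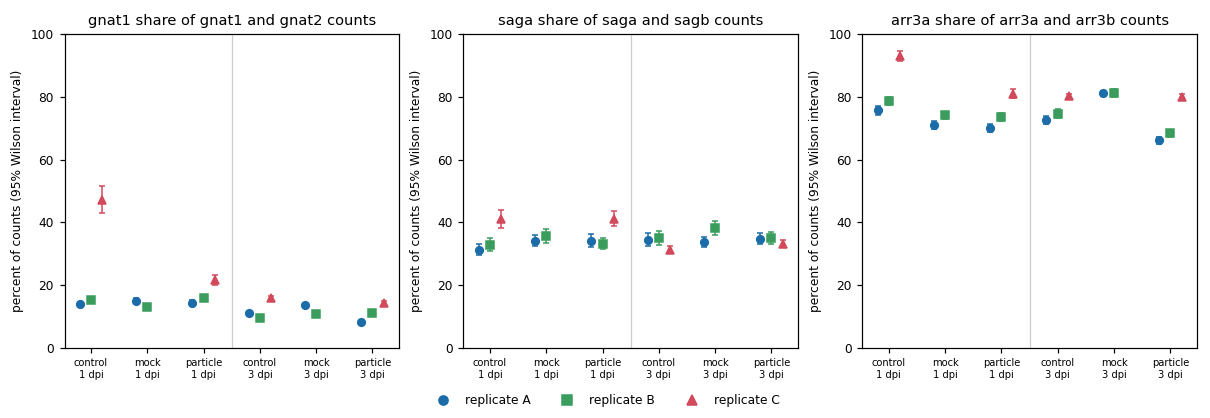
Percent of counts held by gnat1 of the transducin pair, saga of the rod arrestin pair and arr3a of the cone arrestin pair in each library, with 95% Wilson intervals. Control C at 1 dpi stands apart at 47.2% for gnat1 and 93.3% for arr3a, and the mock libraries of 3 dpi lie together at 81.2% and 81.3% for arr3a.

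Across the 16 libraries, with the mean of each time removed, the 36 pairs of genes had Pearson correlations of log2 CPM between 0.57 and 1.00. The closest pair was gnat2 with pde6c, and the farthest was arr3b with saga. Control C at 1 dpi weighs heavily in these values, and without it the range over 15 libraries was 0.08 to 0.99. The rod arrestins then kept a correlation of 0.96 with each other and of 0.86 and 0.93 with gnat1, while gnat2, pde6c and grk7a had 0.92 to 0.99 among themselves. The gene pde6h was nearest to arr3a, at 0.88. Rod genes with cone genes ran from 0.08 for arr3b with saga to 0.85 for gnat1 with gnat2. These 15 libraries still hold particle C of 1 dpi. In A and B alone, 12 libraries, the 36 pairs ran from 0.24 for arr3b with saga to 0.98 for gnat2 with pde6c. There gnat2 with pde6h had 0.35, beside 0.52 over the 15 libraries. The correlations describe these libraries, which share their depth, series and treatment, and carry no test.

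**Figure D5:**
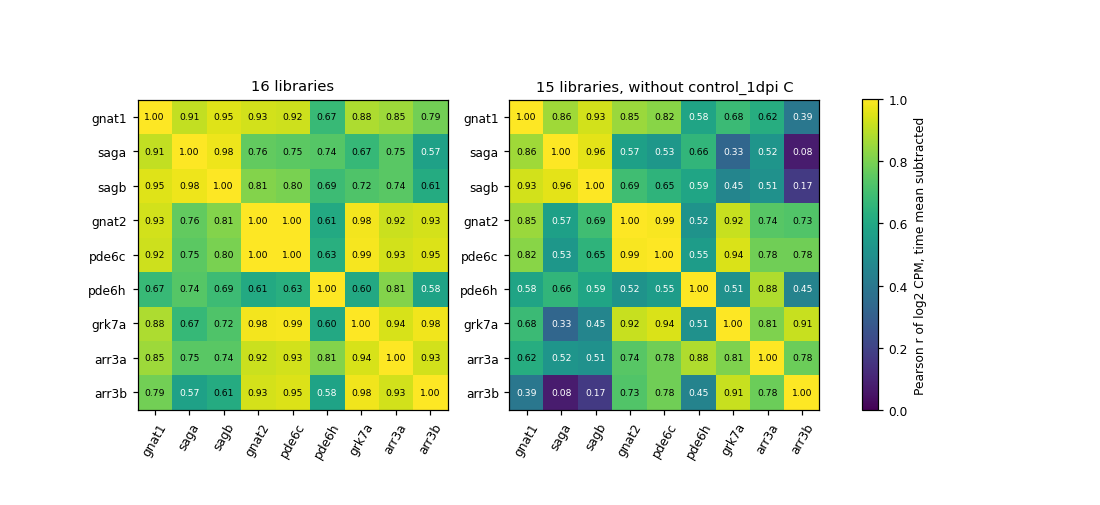
Pearson correlation of log2 CPM between the 9 genes with the mean of each time removed, in all 16 libraries on the left and without control C at 1 dpi on the right. Without that library the value of arr3b with saga falls to 0.08, while gnat2 with pde6c has 0.99.

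Profiles were compared on log2 CPM with the mean of each time removed, over 16 libraries and 21425 genes that averaged 1 CPM or more. The non-member genes most like the mean standardised profile of the 9 genes were gnb5b (r = 0.99), rgs9a (0.98), slc25a3a (0.98), si:ch211-207l14.1 (0.98), gngt2b (0.98), prph2b (0.97), syt5a (0.97) and osbpl7 (0.97). The genes rgs9a and gnb5b encode the complex that speeds transducin shut-off, gngt2b encodes a cone transducin gamma subunit, and prph2b a structural protein of the outer segment. The median over all compared genes was -0.03. Without control C at 1 dpi, rgs9a (0.97), gnb5b (0.97), agpat3 (0.95), prph2b (0.95), slc25a3a (0.94), syt5a (0.94), si:ch73-160h15.2 (0.94) and gngt2b (0.94) were nearest, so that 6 of these 8 genes were in both sets.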

How the data were processed

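The authors deposited 1 table of read counts per gene and library. The deposited values are read as estimated counts because the last line of each deposited table holds a non-whole size factor, although every gene row is whole, so that rounding changed no value. That line and a blank line, 2 per table, were left out. Per the submitters' processing notes, Bowtie2, SAMtools, DESeq and GRCz10 were used, with no roles or versions. The sources used here do not name the read counter, the annotation release or the strand setting.

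The tests ran in edgeR 4.0.16 under R 4.3.3, with filterByExpr (minimum count 10, minimum total 15), TMM scaling, and a quasi-likelihood test on the means of 6 groups. Log2 CPM used a prior count of 2, and SE is the log2 fold change divided by the root of F. limma 3.58.1 and DESeq2 1.42.0 were alternatives, and figures were drawn with python 3.11.15 and matplotlib 3.10.9. The script was tested on simulated data. Library letters and groups follow the sample titles, although 1 header names particle_1dpi B as A and 1 characteristics entry numbers control_1dpi C as replica 1. Chi-square per degree of freedom between libraries of a group ran from 6.02 to 98.4, so none repeats another. Letters were taken to pair libraries where deviations from group means correlated over 0.1 for all 3 letters, A, B and C. This held for control with particle embryos at 1 dpi (0.57, 0.31 and 0.75) and for particle embryos between times (0.41, 0.11 and 0.54), and in no other comparison made. Deviations within a group cancel, so a shift of the C libraries also moves A and B the other way. The rule therefore cannot tell pairing by letter from a difference of the C series.

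The 9 genes and the gene lists were chosen with earlier results of these data known. The text names all 9 genes, the 4 most abundant genes of a list where a result turns on them, the 8 most similar genes, and others where it says so. Of 156 listed genes 149 matched, 138 by symbol and 11 by identifier, and 148 were tested.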

Additional observations from a re-analysis of the deposited data

How the results depend on the processing

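Over the changes between times of the 9 genes and 5 treatment values at 3 dpi (pde6h in both mock comparisons, arr3b and saga in particle against mock, arr3a in mock against control), 767 of 837 alternative log2 values kept direction and side of the threshold, 52 gained a call, 14 lost one and 4 reversed. The reversed values were gnat1 between times in control, at -0.14 in A and B alone and -0.15 there without mock_3dpi A, and sagb between times in control, at -0.056 in A and B alone and -0.069 without mock_3dpi A. Over all treatment comparisons 117 of 1458 alternative values of the 9 genes changed sign, and over the interactions 95 of 702, in each case with 0 called. Without mock_3dpi A, A and B alone called 1 gene higher between particle and mock at 3 dpi, and 3, 7 and 5 genes higher between times in control, mock and particle embryos, beside 9.13%, 6.86%, 23.6% and 8.91% of all genes. The mock group of 3 dpi then holds 1 library, which is assumed to vary like the other groups. For particle against mock at 3 dpi, A and B alone gave 1 gene higher with 2 lower, for mock against control 1 higher, and 7 and 5 between times in mock and particle embryos. Without both C libraries of 1 dpi the counts were 1 lower and 2 higher in those treatment comparisons and 7 and 4 between times. DESeq2 gave 1 higher for mock against control at 3 dpi (7.17% of all genes) and 2 between times in mock (26.7%). The series term gave 2 in mock (33.5%), and the groups compared alone gave 0, 6 and 0 between times in control, mock and particle (0.114%, 18.9% and 0.394%). Leaving out 1 library gave 0 to 1, 1 to 3 and 0 to 3. The cause was not tested. A and B without mock_3dpi A and the set without both C libraries of 1 dpi were chosen after seeing the data. Over all genes, particle against mock at 3 dpi called 2044, between 0 and 5645 under alternatives.

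Same-letter libraries of different groups had correlations of their deviations between -0.0953 and 0.745 over 36 pairs, 15 over 0.1. All 4 C libraries correlated best with their own letter, and 3 of 12 A and B libraries did. With the replicate block 0 of 9 genes passed between particle and control at 1 dpi, and the block changed no call of the 9 genes in any comparison. In the other comparisons the letters did not meet the rule for pairing. There pde6h had 2.83 between times in control and -1.33 between particle and mock at 3 dpi, and the counts over all genes went from 328 to 1570 and from 5578 to 7600 between times in control and mock, and from 2044 to 5136 and 381 to 2213 for particle against mock and mock against control at 3 dpi.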

Other observations

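Of 7 pineal photoreceptor genes, parapinopsinb and asmt were called lower at 3 dpi in particle than in mock embryos, beside 3.35% of all genes, and parapinopsinb alone was called higher in mock than in control embryos, beside 0.428%. Called higher at 3 dpi in particle than in mock embryos were gnb1a of 40 other cascade genes and nrl of 23 photoreceptor transcription and structure genes. So were rdh5 of 19 visual cycle genes, tyr of 8 pigment genes and mipa of 19 lens genes. Their log2 values were 0.57, 1.40, 1.68, 2.41 and 1.31, where 5.3% of all genes were called higher. Of 9 opsins and of 23 markers of other retinal neurons and glia 0 were called. The pineal opsin gene parapinopsinb stood at 82.5 and 91.1 CPM in mock, 57.7, 43.7 and 51.9 CPM in control and 39.3, 40.3 and 55.0 CPM in particle embryos at 3 dpi. It was lower with particles than with mock injection by 0.95 on the log2 scale (SE 0.17, edgeR adjusted p = 0.0131) and higher with mock injection than in controls by 0.76 (SE 0.17, edgeR adjusted p = 0.0443). The melatonin synthesis gene asmt stood at 42.1 and 18.6 CPM in mock, 18.4, 10.8 and 9.89 CPM in control and 12.2, 10.8 and 11.1 CPM in particle embryos, with a log2 value of -1.42 between particle and mock (SE 0.36, edgeR adjusted p = 0.0315). Its difference between mock and control did not pass. The part of the pineal genes' change in the pde6h values was not tested.

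Among the other lists, 4 of 8 pigment genes were called lower at 3 dpi than at 1 dpi in mock embryos, where 12.5% of all genes were. Of the 8, pmelb alone fell in control and in particle embryos, by 1.72 and 1.82, where 0.203% and 0.508% of all genes fell. The visual cycle list had 1 gene higher and 2 lower of 19 in mock embryos, and the lens list 0 of 19 in any of the 3 treatments, where 23.6% of all genes were called in mock, 1.39% in control and 2.07% in particle embryos. Photoreceptor transcription and structure had 2 of 23 genes higher in control, 4 higher and 3 lower in mock and 3 higher in particle embryos. Higher in all 3 were rp1l1b (2.94, 2.38 and 2.96) and impg1b (1.77, 1.62 and 1.92). Of 23 markers of other retinal neurons and glia, 1, 4 and 1 were higher, and 1 was lower in mock embryos. In mock embryos 1 of 9 opsins and 3 of 7 pineal genes were higher. The shares of all genes called higher were 1.19%, 11.1% and 1.56%.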
